A study of Mus musculus with 2 samples.

Results

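The Hes and Hey genes encode basic helix-loop-helix repressors, and 8 of them (Hes1, Hes3, Hes5, Hes6, Hes7, Hey1, Hey2 and Heyl) were measured in wild type and Plzf lu/lu mouse brain at E10.5. The members were chosen by gene name, and every non-control probe that carried 1 of these names was kept, which gave 11 probes for 8 of the 37074 gene names on the array. Hes5, Hes6 and Heyl had 2 probes each and the other 5 genes had 1 probe each. On each of 2 Agilent SurePrint G3 Mouse v2 arrays, cRNA of wild type embryos of the C57BL/6 strain was labeled with Cy3 and cRNA of luxoid embryos with Cy5. Luxoid (lu) is a spontaneous allele of Plzf (Zbtb16), which encodes a zinc finger repressor, and a point mutation in it cuts the protein short. The tissue was the forebrain and midbrain by the methods and the brain by the labels. The labels call the arrays biological replicates, and the number of embryos behind each is not given in the sources used here. Dyes were not exchanged, so a dye effect on a probe cannot be told apart from the genotype.

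Notch signaling is a contact-dependent pathway in which a ligand on 1 cell leads to cleavage of the Notch receptor on its neighbor, and the released receptor fragment joins the DNA-binding protein Rbpj to switch on genes such as Hes1, Hes5 and the Hey genes. Their products bind DNA, recruit Groucho/Tle co-repressors and keep proneural genes such as Neurog2 low, which holds neural progenitors back from differentiation. Hes3 is known from the isthmus, the signaling center at the border of midbrain and hindbrain, Hes7 from the segmentation clock of the presomitic mesoderm, and Hes6 as an inhibitor of Hes1 that rises in cells committed to become neurons. Hey2 and Heyl are known mainly from blood vessels and heart.

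Of the 8 genes, Hes3 was the 1 that was lower in Plzf lu/lu by more than 1.3-fold on both arrays, at 0.430 and 0.310 of the wild type signal. Hey1 was higher on both arrays, at 1.28 and 1.46 times wild type, and so missed the 1.3-fold threshold on array 1. Hes1, Hes5 and Hes6 had opposite signs on the 2 arrays, and Hes7 was at 0.979 and 0.986 of wild type.

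The probes that carry these measurements are 60-mers. The deposited annotation gives their position in build mm9 but not the exon or UTR they lie in. The probes of Hes1, Hes3 and Hes7 hold the letters AATAAA, which are those of the polyadenylation signal near the 3′ end of a transcript. The 30 bases that hold them are shown 5′ to 3′ with these 6 letters in capitals, because the Hes3 result rests on this single probe.
Hes3: tatacaattatgAATAAAgactgggcgtga
Hes1: ttgagaaaatatAATAAAagagtgaaggct
Hes7: gtccctagtgcatggAATAAAatcgttatt

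Hes5 and Hes6 each had a bright probe and a second, dimmer one placed further toward the 5′ end of the gene. The second probes are shown whole, since they resemble each other and give a second reading of both genes. That reading comes from the same cRNA on the same arrays, so it checks the probe and not the sample. With the Hes6 probe set 6 bases into the Hes5 probe, 32 of the 54 overlapping letters matched (59.3%). The capitals mark the matching letters.
Hes5: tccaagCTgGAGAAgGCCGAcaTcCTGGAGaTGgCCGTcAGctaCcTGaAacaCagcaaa
Hes6: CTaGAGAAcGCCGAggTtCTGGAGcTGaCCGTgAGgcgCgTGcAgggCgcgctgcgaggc

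Between 36936 and 44318 of the 59305 gene spots were well above background in each channel, and none was saturated. Forebrain markers were present, with 6 of 8 passing the filter described next, and Six3 and Otx2 were among those higher in Plzf lu/lu beyond 1.3-fold on both arrays. Their list's summed signal was 7811 and 6180.04 in wild type and 9263 and 9863 in Plzf lu/lu. A gene passed the filter when its brightest probe exceeded a processed signal of 200 and reached a signal-to-noise ratio of 5 in each of the 4 channels. This held for 10600 genes, among them Hes1, Hes5, Hes6, Hes7 and Hey1. None of these 5 was beyond 1.3-fold on both arrays with the same sign, where 2.58% of all passing genes were higher in Plzf lu/lu and 0.736% lower. When the filter had to be met in only 1 channel of each array, 11079 genes passed and Hes3 was added, and 1 of 6 members was then lower (0.867% of all these genes were). On array 2 Hes3 met this filter through its wild type channel alone, where it was higher, so this count carries no support of its own. Hes3, Heyl and the others except Hey2 were well above background in every channel, as were 23283 genes in all. By limma with Benjamini-Hochberg adjustment over all tested genes, none of the 5 passing members reached an adjusted p under 0.05. The same fit called 3 genes of the 10600 (0.0283%), and 2942 genes (27.8%) at an unadjusted p under 0.05, Hey1 among them.

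**Figure D1:**
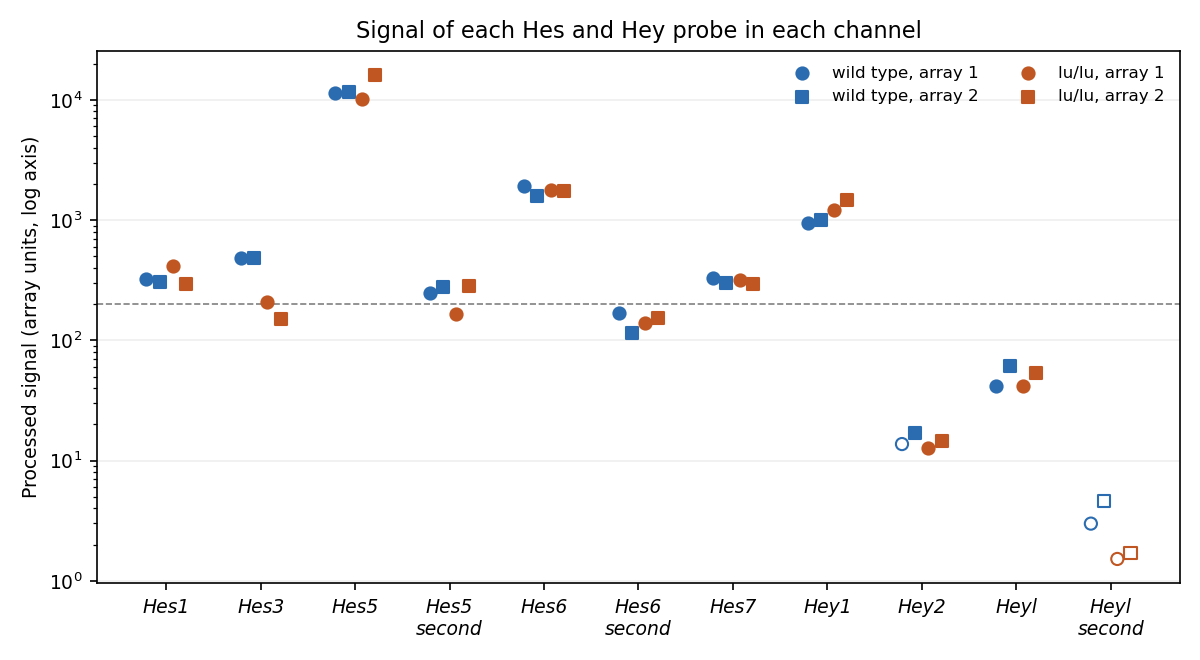
Processed signal (log axis, array units) of each of the 11 probes in the wild type and lu/lu channels of both arrays; open symbols are spots not well above background, and the dashed line marks the filter at 200. Both lu/lu points of Hes3 lie under both wild type points and both lu/lu points of Hey1 lie over them, and heights of different probes are not comparable.

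Hes3 (NM_008237) was probed on chromosome 4 at chr4:151660083-151660142, on the minus strand. Its processed signal on arrays 1 and 2 was 486 and 485 in wild type and 209 and 150.2 in Plzf lu/lu. The wild type channels agreed closely and both Plzf lu/lu signals lay below both of them, as in 22.4% of all genes well above background, and the lower one was under the filter of 200. The log2 ratio was -1.22 on array 1 and -1.69 on array 2, with a mean of -1.45 ± 0.33 (SD, n = 2 arrays). Because the gene did not pass the filter in both channels, it was tested among the genes well above background, where limma gave a standard error of 0.149, a 95% confidence interval of -1.87 to -1.04 and an adjusted p of 0.252. That fit called 0 of the 23283 genes (0.0%) at an adjusted p under 0.05 and 3956 (17.0%) at an unadjusted p under 0.05. Over its alternatives the adjusted p of Hes3 ranged from 0.000345 to 0.506, and the mean log2 ratio from -1.54 to -1.30. Among the 23283 genes well above background, Hes3 ranked 14 of those lower on both arrays, by the smaller of the changes on the arrays. The study lists Hes3 as changed on these same arrays, so its direction here is not independent evidence of that change. In whole tissue, fewer cells that express a gene and less RNA per cell cannot be told apart.

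**Figure D2:**
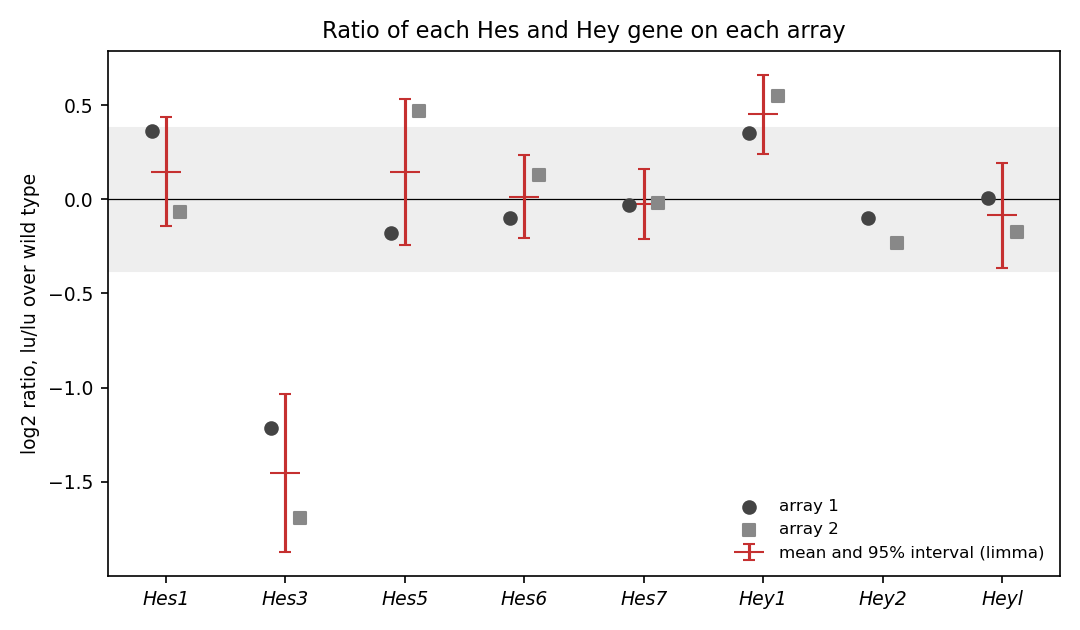
Log2 ratio of lu/lu over wild type for each of the 8 genes on array 1 (circles) and array 2 (squares), with the limma mean and 95% confidence interval in red; the grey band spans ratios within 1.3-fold, and Hey2 was not tested. Hes3 lies below the band on both arrays, Hey1 lies at its upper edge on array 1 and above it on array 2, and the other 6 genes have at least 1 array within the band.

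Among all genes that passed in at least 1 channel, the 5 whose ratios lay nearest to those of Hes3 on the 2 arrays were Zbtb16, Cnpy1, Pcp4l1, Cldn11 and En2. Nearness was the Euclidean distance between the pairs of log2 ratios, over 2 arrays only. Zbtb16, Cnpy1 and Cldn11 did not pass in both channels. Cnpy1 and Cldn11 on both arrays, and Zbtb16 on array 1, met the filter through wild type alone, where they were higher. Their place beside Hes3 thus carries no support of its own. Zbtb16, the mutated gene itself, was nearest at a distance of 0.34, with log2 ratios of -1.33 and -1.37. Its signals were 433 and 546 in wild type against 172 and 211 in Plzf lu/lu. The lu allele is a point mutation, so a lower transcript level does not test the genotype. En2 and Cnpy1 are both known from the midbrain and isthmus, and their log2 ratios were -1.86 and -1.25 for En2 and -1.29 and -1.08 for Cnpy1.

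**Figure D3:**
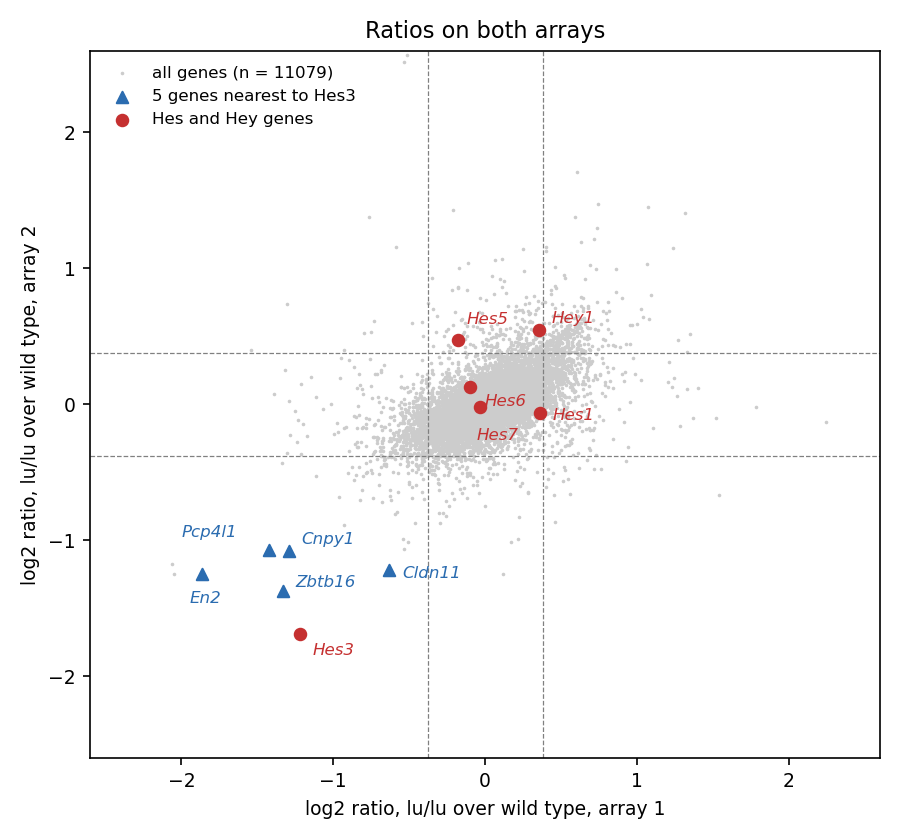
Log2 ratio of lu/lu over wild type on array 1 (x axis) and array 2 (y axis) for the 11079 genes that passed in at least 1 channel, with dashed lines at 1.3-fold; 2 genes fall outside the axes. Hes3 (red) lies at the lower left beside Zbtb16, Cnpy1, Pcp4l1, Cldn11 and En2 (blue triangles), and the other Hes and Hey genes lie in or at the edge of the central cloud.

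A list of 14 genes of the isthmic organizer was compared with Hes3. Of these, 7 passed in both channels. En2 was the 1 lower beyond 1.3-fold on both arrays (0.736% of all passing genes were), and none was higher. The median log2 ratio was -0.11 against 0.01 for all passing genes. Among the 13 that were well above background, 4 were lower (2.07% of all such genes were) and none was higher. These were En2, Cnpy1, Gbx2 and Pax8. Gbx2, which sets the anterior limit of the hindbrain, had signals of 34.7 and 38.7 in wild type and 7.29 and 9.93 in Plzf lu/lu, and log2 ratios of -2.25 and -1.96. None of the 4 secreted signals on the list was beyond 1.3-fold on both arrays. Fgf8 had log2 ratios of 0.40 and 0.19, Fgf17 of -0.22 and -0.56, Fgf18 of -0.25 and -0.35, and Wnt1 of -0.60 and -0.21. The transcription factor Pax2 had log2 ratios of -0.10 and -0.01. Spry1 and Spry2, feedback targets of Fgf signaling, lay between -0.01 and 0.08 on each array. The summed signal of the list was 6102 and 5997 in wild type and 4478 and 4308 in Plzf lu/lu, and without En2, which made up most of this difference, it was 4185 and 3687 against 3951 and 3334. Of 7 hindbrain markers none passed the filter, and Hoxa2 and Hoxb1 were not well above background in any channel. The summed signal of the hindbrain list was 377 and 314 in wild type and 285 and 263 in Plzf lu/lu. The part of the cells that these isthmic and hindbrain genes mark in the Hes3 result was not tested.

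The genes beside Hes3 on chromosome 4 did not show the ratio of Hes3. Of the 3 genes on each side, Acot7, Icmt and Rpl22 passed the filter and had log2 ratios between -0.03 and 0.09 on each array. Rnf207 was dim, with signals of 16.7 and 33.7 in wild type and 28.2 and 25.3 in Plzf lu/lu, and its log2 ratios of 0.76 and -0.41 had opposite signs. Gpr153, an adjacent gene, had log2 ratios of -0.28 and -0.35, and its signals of 214 and 199 in wild type were above those of 176 and 156 in Plzf lu/lu. Hes2, another member of the Hes family, was dim, with signals from 32.7 to 42.1 and log2 ratios of -0.06 and 0.15. Hes5 and Heyl lie on the same chromosome as Hes3, at 2.68 Mb and 28.73 Mb from it between their probes, and neither shared its ratio. The 8 genes lie on 6 chromosomes.

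Hey1 (NM_010423), a Notch target that restrains neuronal differentiation in the embryonic brain and also acts in vessels, was probed at chr3:8663432-8663491 on the minus strand. Its signal was 948 and 1003 in wild type and 1212 and 1468 in Plzf lu/lu. Both Plzf lu/lu signals lay above both wild type signals, which was so for 30.5% of all passing genes. The log2 ratio was 0.35 on array 1 and 0.55 on array 2, with a mean of 0.45 ± 0.14 (SD, n = 2 arrays). The limma fit over passing genes gave a standard error of 0.0847, a 95% confidence interval of 0.24 to 0.66, an unadjusted p of 0.00216 and an adjusted p of 0.0609. By the smaller of the changes on the arrays, Hey1 ranked 362 of those higher on both among the 11079 genes. The markers of endothelium, where Hey1 is also expressed, had the opposite sign. Of 11 such markers, 4 passed, 2 were lower beyond 1.3-fold on both arrays (Emcn and Plvap; 0.736% of all passing genes were) and none was higher, with a median log2 ratio of -0.60. All 11 were well above background, and 6 of them were lower by the same rule, against 2.07% of all such genes. Their summed signal was 5631 and 6321 in wild type and 4688 and 4359 in Plzf lu/lu. The part of endothelium in the Hey1 value was not tested.

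Hey2 (NM_013904, chr10:30552729-30552788, minus strand) and Heyl (NM_013905, chr4:122926975-122927034, plus strand), the members best known from vessels, were dim. The signal of Hey2 was 13.7 and 17.0 in wild type and 12.8 and 14.5 in Plzf lu/lu. On array 1 the wild type spot was not well above background, and Hey2 was not tested. The brighter probe of Heyl gave 41.8 and 60.8 in wild type and 42.0 and 53.8 in Plzf lu/lu. The arrays differed more than the genotypes did, and the mean log2 ratio of -0.09 ± 0.13 (SD, n = 2 arrays) had a limma adjusted p of 0.668 and a 95% confidence interval of -0.36 to 0.19. Markers of mural cells and smooth muscle, another vascular site of Heyl, had 1 of 3 passing genes lower by the same rule (Tagln). Of all passing genes 0.736% were lower. The summed signal of the mural list was 10449.5 and 8576 in wild type and 8057 and 6970 in Plzf lu/lu. The part of these cells in the Heyl value was not tested. The second Heyl probe, which is annotated to another transcript, was not well above background in any channel and gives no ratio.

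Hes5 (NM_010419), the Hes gene most closely tied to Notch activity in neural progenitors, differed between the arrays. Its bright probe at chr4:154336361-154336420 (plus strand) gave 11475 and 11612 in wild type. In Plzf lu/lu it gave 10134 on array 1 and 16089.8 on array 2, below both wild type signals in one case and above both in the other. The log2 ratios were -0.18 and 0.47, with a mean of 0.15 ± 0.46 (SD, n = 2 arrays), a 95% confidence interval of -0.24 to 0.53 and a limma adjusted p of 0.566. The interval reaches from a ratio of 0.846 to one of 1.45. The second probe, shown above with that of Hes6 and placed at chr4:154335350-154335409, gave 249 and 276 in wild type and 165 and 282 in Plzf lu/lu, with log2 ratios of -0.60 and 0.03. The 2 probes thus disagreed in the sign of the mean, which was -0.28 for the second probe. They gave nearly the same difference between arrays, since array 2 exceeded array 1 by 0.65 on the log2 scale with the bright probe and by 0.62 with the second. Among all passing genes, 1.87% had array ratios that lay at least as far apart as those of the bright probe.

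The signal of each channel was then compared between the arrays after subtraction of the change of the median gene in that channel. For the bright Hes5 probe, the wild type channel was higher on array 2 by 0.04 and the Plzf lu/lu channel by 0.72 on the log2 scale. For the second probe these values were 0.18 and 0.82. The difference thus lay in the Plzf lu/lu channel in both cases. Hes1 and Hes3 also differed mainly in that channel, where the change from array 1 to array 2 was -0.45 and -0.43. Hes6 instead differed mainly in the wild type channel. Its bright probe changed by -0.24 in wild type and 0.01 in Plzf lu/lu, and its second probe by -0.53 and 0.20. Among the 5 passing members, 4 had a higher ratio on array 2 than on array 1, as did 46.4% of all passing genes.

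**Figure D4:**
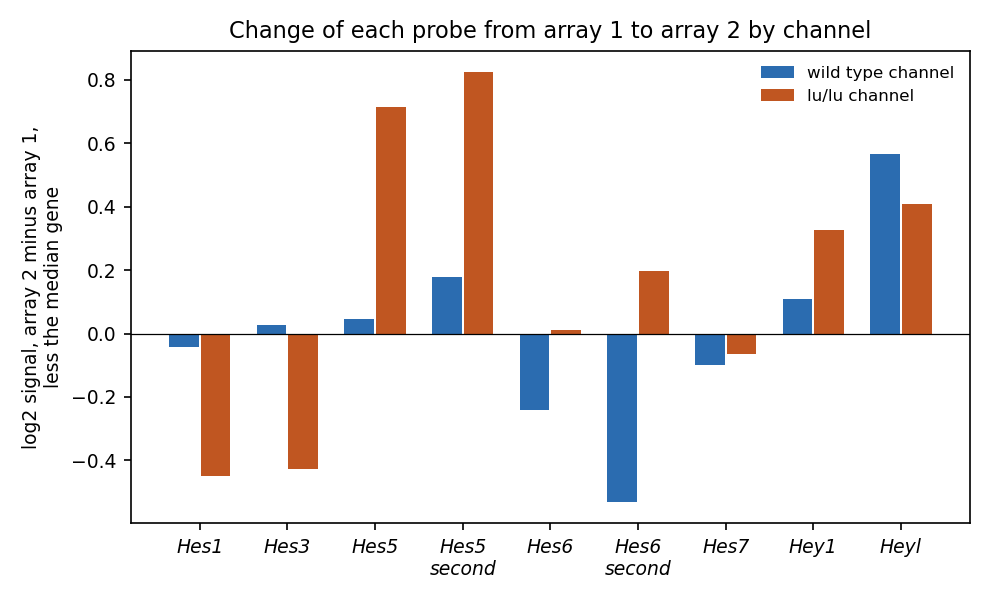
Change in log2 signal from array 1 to array 2, less that of the median gene in the same channel, for 9 probes in the wild type (blue) and lu/lu (orange) channels. Both Hes5 probes are higher on array 2 in the lu/lu channel, by 0.72 and 0.82, and differ by 0.04 and 0.18 in the wild type channel. Hes1 and Hes3 are lower on array 2 in the lu/lu channel, and both Hes6 probes are lower on array 2 in the wild type channel.

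Markers of early neurons had higher ratios on array 2, as Hes5 did, and those of neural progenitors did so less evenly. Of 11 early neuron markers 9 passed, and their median log2 ratio was 0.07 on array 1 and 0.72 on array 2. All 9 had a higher ratio on array 2, where 46.4% of all passing genes did. Their list's summed signal was 8521 and 7401 in wild type and 8814 and 11940 in Plzf lu/lu. Elavl4, an RNA-binding protein of neurons, was the 1 higher beyond 1.3-fold on both arrays, where 2.58% of all passing genes were. Of 9 neural progenitor markers 8 passed, with medians of 0.12 and 0.37, and 6 of the 8 were higher on array 2. Pax6 was lower on array 2, with log2 ratios of 0.37 and 0.11, and Msi1 was even, at -0.169 and -0.170. Sox2 differed little, at 0.44 and 0.47. The radial glia gene Fabp7 had log2 ratios of -0.41 and 0.50, a pattern close to that of Hes5. The genes of the Notch pathway did not share this as a group, since 7 of the 21 that passed, of 30 listed, had a higher ratio on array 2. Dll3 was among the 7, with log2 ratios of -0.28 and 0.38, whereas Aph1a, a subunit of the protease that cleaves Notch, had 0.73 and -0.01. Hemoglobin and other primitive erythrocyte markers were uneven in the wild type channel, with a summed signal of 469887 on array 1 and 195015 on array 2, against 251508 and 238043 in Plzf lu/lu. The part of these cell types in the difference between the arrays was not tested.

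The sequence just before the start of Hes5 holds 2 matches, 143 bases apart, to the letters of an Rbpj site. The 250 bases before the start in RefSeq (GRCm38.p6, chr4:154960673-154960922, plus strand) are shown because Hes5 serves as the usual readout of Notch. The capitals mark the letters GTGGGAA, or TTCCCAC on the opposite strand, which are those that Rbpj binds.
Hes5: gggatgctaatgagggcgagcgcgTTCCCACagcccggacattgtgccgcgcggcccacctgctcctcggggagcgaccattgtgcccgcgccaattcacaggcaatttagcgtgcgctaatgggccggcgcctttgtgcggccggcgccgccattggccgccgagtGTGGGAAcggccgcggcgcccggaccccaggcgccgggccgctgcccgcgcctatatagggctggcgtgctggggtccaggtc
The 2 matches begin 226 and 83 bases before the start. In the 250 bases before the start, 5.42% of the 32851 RefSeq promoters held at least 1 such match on either strand and 0.161% held 2 or more. RefSeq promoter entries were matched for 4 of the 8 genes, and those of Hes7 and Hey2 held 1 match each and the 2 entries of Hes6 none. A match is a description of the letters and not evidence of binding in these samples.

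Hes1 (NM_008235), which oscillates in neural progenitors, was probed at chr16:30067820-30067879 on the plus strand. Its signal was 321 and 305 in wild type and 412 and 292 in Plzf lu/lu. The Plzf lu/lu signals thus lay on either side of the wild type signals. The log2 ratios of 0.36 and -0.07 had a mean of 0.15 ± 0.30 (SD, n = 2 arrays), a 95% confidence interval of -0.14 to 0.44 and a limma adjusted p of 0.443.

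Hes6 (NM_019479) gave 1909 and 1586 in wild type and 1781 and 1734 in Plzf lu/lu with its bright probe at chr1:93308264-93308323 on the minus strand. Both Plzf lu/lu signals lay between the wild type signals. The log2 ratios of -0.10 and 0.13 had a mean of 0.01 ± 0.16 (SD, n = 2 arrays) and a limma adjusted p of 0.928. The second probe at chr1:93309308-93309367 was dimmer, at 169.9 and 115 in wild type and 139.7 and 155 in Plzf lu/lu, and its log2 ratios of -0.28 and 0.42 also had opposite signs. Together with Hes1 and Hes5, 3 of the 5 passing members had opposite signs on the 2 arrays, which was so for 27.4% of all passing genes.

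Hes7 (NM_033041, chr11:68936702-68936761, plus strand) had nearly even signals. They were 327 and 300.0 in wild type and 320.2 and 296 in Plzf lu/lu. The log2 ratios were -0.03 and -0.02, the 95% confidence interval was -0.21 to 0.16 and the limma adjusted p was 0.842. This interval spans ratios from 0.865 to 1.12. Markers of the presomitic mesoderm, the tissue in which Hes7 is best known, were dim. None of the 7 passed the filter, 4 were well above background in every channel, their summed signal was 146 and 136 in wild type and 129 and 145 in Plzf lu/lu, and Mesp1 and Cdx2 were not well above background in any channel.

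The rest of the Notch pathway was then examined through lists of its receptors, ligands, fringes, and processing and nuclear proteins, 30 genes in all. Of these, 21 passed, 1 was higher beyond 1.3-fold on both arrays and none was lower, where 2.58% and 0.736% of all passing genes were, so that the count was near the background. Among the 29 well above background, 2 were higher (Notch2 and Jag2) and none was lower, where 2.52% and 2.07% of all such genes were. Notch2 was the 1 that passed, with signals of 584 and 598 in wild type and 904 and 779 in Plzf lu/lu, log2 ratios of 0.63 and 0.38 and a limma adjusted p of 0.0577. Its ratio on array 2 was 1.303, just past the threshold. The receptors Notch3 and Notch4 had log2 ratios between 0.01 and 0.11 on each array. Notch1 was dim, at 97.0 and 87.8 in wild type and 59.1 and 76.6 in Plzf lu/lu. The medians of the log2 ratio were 0.06 over 3 passing receptors, 0.18 over 4 ligands, 0.17 over 2 fringes and 0.13 over 12 processing and nuclear proteins, against 0.01 over all passing genes.

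Among the ligands, Jag2 was dim and was higher by the same rule, with signals of 94.4 and 98.7 in wild type and 169 and 136 in Plzf lu/lu. Dll1, the main ligand of the neural tube, had log2 ratios of 0.02 and 0.19. Jag1 had log2 ratios of 0.39 and 0.14. Dlk1, a non-canonical ligand, was uneven, with log2 ratios of 1.33 and 0.11. Rbpj, the DNA-binding partner of the Notch fragment, had log2 ratios of 0.24 and 0.00, and the ubiquitin ligase Mib1, which activates ligands, had 0.14 on both. The endocytic Notch inhibitor Numb was dim, with log2 ratios of -0.54 and 0.00.

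None of the 5 passing Groucho and Tle co-repressors, through which Hes and Hey proteins act, was beyond 1.3-fold on both arrays. Their median log2 ratio was -0.05. Tle4 and Tle3 came nearest, at 0.46 and 0.31 for Tle4 and -0.45 and -0.30 for Tle3, with limma adjusted p-values of 0.0712 and 0.0737. Of the Id genes, whose products block helix-loop-helix activators by dimerizing with them, 4 of 4 passed and none was beyond 1.3-fold on both arrays. Id4 was uneven, with log2 ratios of -0.11 and 1.04. Of 4 further repressors of the Hes clan, Helt, which acts in the midbrain, was the 1 that passed, with log2 ratios of -0.19 and -0.17.

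Proneural and neuronal bHLH factors, among them genes that Hes and Hey proteins repress, the Olig factors and the E protein partners, made up a list of 16 genes, and they differed in both directions. Among the 3 that passed in both channels, Tcf4 was higher (2.58% of all passing genes were). It had log2 ratios of 0.66 and 0.49 and a limma adjusted p of 0.0510. When 1 channel was enough, 5 passed and 3 were higher, which was so for 2.78% of all genes. Of these, Neurog2 had log2 ratios of 0.40 and 1.16 and a limma adjusted p of 0.0961 among the 11079 genes. Neurog2 met this filter through its Plzf lu/lu channel alone, where it was higher, so it adds no support to this count. Of the 12 well above background, 6 were higher and 1 was lower, where 2.52% and 2.07% of all such genes were. Neurod1 had signals of 58.7 and 77.1 in wild type and 154 and 213 in Plzf lu/lu, and Olig1 had 44.5 and 50.9 against 88.8 and 99.5. Olig2 was also higher by this rule.

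The gene on the lower side was Olig3, which marks dorsal progenitors including those of the rhombic lip, at 74.5 and 99.2 in wild type and 31.8 and 48.4 in Plzf lu/lu. Atoh1, the proneural gene of the rhombic lip and a known target of Hes repression, had signals of 91.6 and 83.9 in wild type. In Plzf lu/lu its signals of 2.84 and 3.92 were not well above background on either array. Its wild type signal was 14.2-fold above the lowest signal that counts as well above background in the Plzf lu/lu channel. A spot can fail that call at a higher signal than one that meets it. In wild type on array 1, Hey2 failed it at 13.7 and Rgs5 met it at 12.5. The 14.2-fold value is therefore not a strict lower bound. It used channel values set to a common scale between the arrays and remains open to dye bias, and Atoh1 was not among the tested genes. Neurog1 and Neurog3 lay between -0.20 and 0.05 in log2 ratio on each array.

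**Figure D5:**
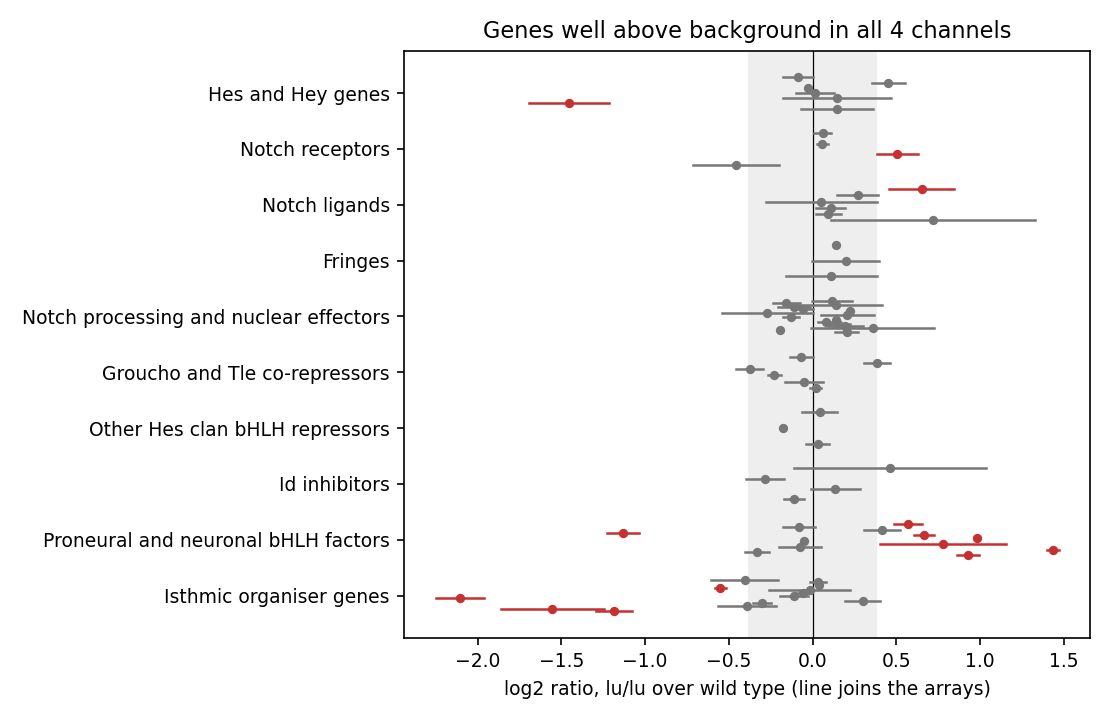
Log2 ratio of lu/lu over wild type for the Hes and Hey genes and 9 gene lists, for genes well above background in all 4 channels; each line joins the values of the 2 arrays, the point is their mean, red marks genes past 1.3-fold with the same sign on each array, and the grey band spans ratios within 1.3-fold. Hes3 is the 1 red member of the top row, 4 isthmic genes are red on the lower side, and 6 bHLH factors are red on the higher side and 1 on the lower.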

How the data were processed

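Of the files, the Feature Extraction output of both arrays was used. Per the file headers, the authors' Feature Extraction (version 10.7.3.1) took off background, set dim signals to surrogates and balanced the dyes of an array by LOWESS. The deposited values are processed intensity, the log10 ratio of Cy5 over Cy3 and, in a separate file, the same ratio as log2, with positions in build mm9. No normalization between arrays was done. Spots that were controls or outliers were removed, log2 values of repeated spots were averaged, and each gene was read from its brightest probe. Signal-to-noise was the background-subtracted mean signal over the SD of the background pixels. Log2 ratios were tested with limma 3.58.1 (lmFit, eBayes) in R 4.3.3, with 1 residual degree of freedom per gene; with 2 arrays an exact two-sided sign-flip test cannot go below p = 0.5. The number of arrays limits the precision. Hes3 and Heyl were tested among genes well above background. The fold value for Atoh1 used Aquantile normalization between arrays.

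Named genes were all 8 members with every probe, the 5 officially named genes nearest to a member that was beyond 1.3-fold, and, in each list, genes beyond 1.3-fold on both arrays or with a role named in the text. Some genes that this rule selects are left out of the text. The members, lists and tests were chosen with earlier results of these data known. The fit was tested on simulated data. Python 3.11.15 with numpy 2.4.6, pandas 2.3.3 and matplotlib 3.10.9, and the R package data.table (version 1.17.8), were also used. Alternatives were another background correction with loess or centring (normexp, offset 50), the deposited log2 table, other filters, all probes of a gene, removal of a GC trend (lowess, span 0.67), eBayes with trend, 1.5-fold, channels without pairing, and each array alone.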

Additional observations from a re-analysis of the deposited data

How the results depend on the processing

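With 1 array at a time, between 0 and 2 of the 5 passing members were higher beyond 1.3-fold (Hes5 and Hey1 on array 2) and none was lower on either. The count of lower members went from 0 to 1, which was Hes3, with genes well above background, with the filter in at least 1 channel and with no filter. The count at an adjusted p under 0.05 went from 0 to 1 only with normexp and median centring, where Hey1 had 0.42 and an adjusted p of 0.0304. Under that centring Hes3 had -1.44 (adjusted p 0.000345) and Heyl -0.51 (adjusted p 0.00299), but among genes well above background it also moved the median log2 ratio from 0.00 to -0.24 and called 11639 genes. Among passing genes it called 1514, and eBayes with trend called 393, against 3. Without the pairing of the channels by array (no replicate block), 0 members were called in either direction, Hes3 had an adjusted p of 0.35 and Hey1 of 0.0779.

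The sign of the mean turned for Hes1 with the GC trend removed (-0.0022), for Hes5 with the mean over probes (-0.069) and with its second probe (-0.28), and for Hes7 with loess (0.0136) and with the GC trend removed (0.0285). With each array alone, the log2 ratio ran from -0.0669 to 0.36 for Hes1, from -0.18 to 0.47 for Hes5, from -0.10 to 0.13 for Hes6 and from -0.18 to 0.0047 for Heyl. The cause was not tested. Hes3, Hey1 and Hey2 kept their direction under every alternative run for them.

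Over the 74 listed pathway genes, 2 were higher and 1 lower among the 41 that passed, where 2.58% and 0.736% of all passing genes were. The higher count was 1 with median centring, 1 with the mean over probes, 1 with the GC trend removed, 8 among genes well above background, 4 with at least 1 channel and 9 with no filter, and the lower count was 5, 2 and 9 with these last 3. With 1 array alone the counts ran from 5 to 8 higher and from 1 to 4 lower.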
